A study of Mus musculus with 2 samples.

Results

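IgM plasma cells of the mouse omentum that were not cycling were examined in a single-cell RNA-seq data set of 2 libraries, 1 from WT mice and 1 from *Postn*-DTR mice. A cell was counted as an IgM plasma cell when it held at least 50 unique molecular identifiers (UMIs) of *Jchain* per 10000 UMIs, *Xbp1* and *Mzb1* above 0, fewer than 2 of the 4 cycling genes *Mki67*, *Top2a*, *Ube2c* and *Birc5* above 0, and *Ighm* as the highest of 6 heavy-chain constant genes. The rule was applied to cells with 200 to 7500 detected genes and found 2003 members among 14414 such cells, 457 of 8680 in the WT and 1546 of 5734 in the *Postn*-DTR library. Members were thus chosen by measured values of these genes, so the levels of the rule's genes describe the members and support nothing further.

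The omentum is an apron of fat in the abdominal cavity, and its lymphoid clusters are known as milky spots. *Postn*-DTR mice are heterozygous for a diphtheria toxin receptor placed by CRISPR/Cas in the first coding exon of *Postn*, on the C57BL/6 background. Diphtheria toxin (DT) kills cells that express the receptor. In the omentum the study reports efficient loss of *Aldh1a2*+ fibroblastic reticular cells and partial loss of another fraction of fibroblastic reticular cells. According to the study, *Postn* is also expressed in stomach, colon and bone, so the ablation may not be limited to the omentum. The WT mice carried no receptor and received DT as well, and omenta of both groups were digested to single cells 5 days after the injection. The age of the mice is not given in the sources used here. Each library pooled the mice of its group, which leaves 1 sample per group and allows neither a test of the genotypes nor a p-value or standard error. Intervals below are 95% intervals for counting error only and do not cover differences between mice.

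Plasma cells are B lineage cells that secrete antibody at a high rate. The transcription factors encoded by *Prdm1*, *Irf4* and *Xbp1* install this state, *Xbp1* by enlarging the endoplasmic reticulum (ER), and the J chain encoded by *Jchain* links IgM into the polymers that are secreted. In the peritoneal cavity and omentum many IgM-secreting cells descend from B1 B cells, which carry a restricted set of V segments and make natural antibody without immunization.

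The V segments used by most members are shown first, since they divide the cells into groups that recur below. The stretches are the 3′ ends of the V exons, each of at most 300 bases, read 5′ to 3′ from the GENCODE transcripts of the GRCm38 (mm10) assembly. Capitals run from the codon of the conserved cysteine, where the third complementarity-determining region begins, to the end of the germline segment. The stretch of *Ighv11-2* lies at chr12:114048241-114048540 (minus strand), that of *Ighv1-11* at chr12:114612243-114612542 (minus strand), that of *Igkv14-126* at chr6:67896345-67896642 (plus strand) and that of *Igkv8-16* at chr6:70386672-70386971 (minus strand).
Ighv11-2: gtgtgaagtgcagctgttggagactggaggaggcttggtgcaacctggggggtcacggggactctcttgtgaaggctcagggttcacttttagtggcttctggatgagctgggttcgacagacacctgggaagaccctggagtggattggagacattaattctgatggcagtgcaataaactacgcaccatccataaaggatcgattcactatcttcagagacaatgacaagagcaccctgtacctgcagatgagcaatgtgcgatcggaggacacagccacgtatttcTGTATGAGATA
Igkv14-126: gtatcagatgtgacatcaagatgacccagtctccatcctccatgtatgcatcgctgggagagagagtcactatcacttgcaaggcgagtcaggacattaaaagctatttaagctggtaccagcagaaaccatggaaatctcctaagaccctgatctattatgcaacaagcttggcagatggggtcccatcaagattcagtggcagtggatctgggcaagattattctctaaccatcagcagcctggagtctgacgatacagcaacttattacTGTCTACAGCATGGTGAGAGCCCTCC
Ighv1-11: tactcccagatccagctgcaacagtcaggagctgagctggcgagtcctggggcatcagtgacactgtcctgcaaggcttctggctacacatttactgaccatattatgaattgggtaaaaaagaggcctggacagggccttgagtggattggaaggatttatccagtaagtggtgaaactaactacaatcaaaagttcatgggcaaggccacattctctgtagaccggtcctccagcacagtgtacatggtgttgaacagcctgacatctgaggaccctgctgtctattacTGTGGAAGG
Igkv8-16: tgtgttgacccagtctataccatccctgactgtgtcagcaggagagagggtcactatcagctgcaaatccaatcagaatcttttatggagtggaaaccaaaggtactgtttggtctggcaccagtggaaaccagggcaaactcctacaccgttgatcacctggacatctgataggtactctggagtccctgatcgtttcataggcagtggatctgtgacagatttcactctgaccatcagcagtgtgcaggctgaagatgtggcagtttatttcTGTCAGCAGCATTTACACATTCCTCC
The V exons of *Ighv11-2* and *Ighv1-11* shared 59.3% of aligned bases (185 of 312 columns), and those of *Igkv14-126* and *Igkv8-16* shared 64.7% (207 of 320).

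IgM plasma cells made up 5.26% of the WT cells (exact 95% interval 4.80 to 5.76) and 27.0% of the *Postn*-DTR cells (25.8 to 28.1), a ratio of 5.12 (4.64 to 5.65). Class-switched plasma cells, in which *Igha* or an *Ighg* gene was highest, went from 0.853% to 3.28%, and cycling plasmablasts, with 2 or more cycling genes above 0, from 0.714% to 5.46%. B cells (*Ms4a1* and *Cd79a* above 0 and *Jchain* below the minimum) were 32.8% of WT and 18.0% of *Postn*-DTR cells. T cells (*Cd3e* above 0, without those B cell genes) were 34.7% and 8.34%, and neutrophil-like cells (*S100a8* and *S100a9* both at 50 or more UMIs per 10000) 3.77% and 16.4%. A share says nothing about the number of cells in the tissue, since all classes of a library sum to its total. With neutrophil-like cells left out of the total the shares of IgM plasma cells were 5.47% and 32.3%, a ratio of 5.90. Within the B lineage alone they were 13.3% and 50.2%, a ratio of 3.78 (3.45 to 4.15).

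**Figure D1:**
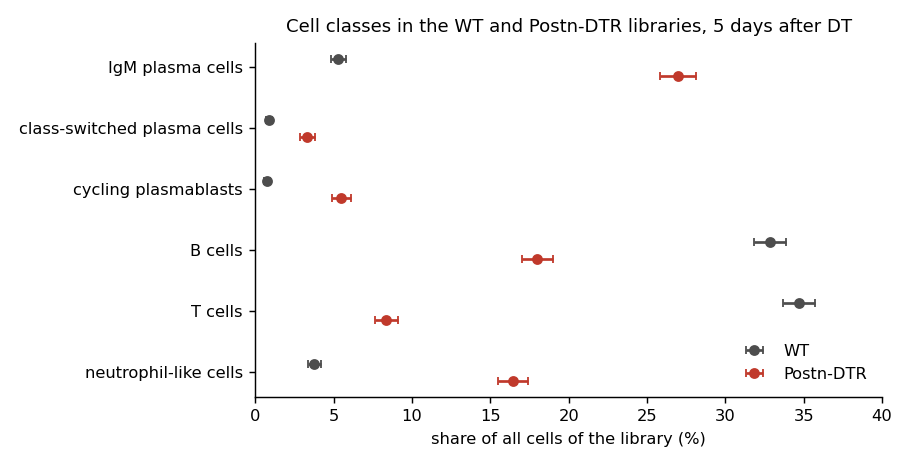
Share of all cells of each library (horizontal axis, %) for IgM plasma cells and 5 other classes in WT (gray) and *Postn*-DTR (red). Points are shares of 1 library per group and bars are exact 95% intervals for counting error. IgM plasma cells were at 5.26% in WT and 27.0% in *Postn*-DTR, whereas T cells were at 34.7% and 8.34%.

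IgM was the isotype of most plasma cells that were not cycling in both libraries, 457 of 531 in WT (86.1%, 82.8 to 88.9) and 1546 of 1734 in *Postn*-DTR (89.2%, 87.6 to 90.6). With the rule as given, the interval of the ratio, 0.997 to 1.08, included 1. The shares lay further apart with a *Jchain* minimum of 100 per 10000, at 87.8% and 92.7%. Among the remaining cells *Ighg3* was highest in 58 WT and 131 *Postn*-DTR cells. *Igha* was highest in 12 and 5 cells, and *Ighg1* in 0 of 531 WT cells, which allows a share of up to 0.565%, and in 41 of 1734 *Postn*-DTR cells (2.36%). Of all IgM plasma cells, cycling ones included, 47 of 504 were cycling in WT (9.33%) and 263 of 1809 in *Postn*-DTR (14.5%), a ratio of 1.56 (1.16 to 2.09). The light chain was kappa in nearly all members: *Igkc* was the highest light-chain constant gene in 98.5% (450 of 457) and 98.8% (1527 of 1546).

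The members were deep cells. Median depth was 28123 UMIs per member in WT and 23243 in *Postn*-DTR, with 2924 and 2682 detected genes, against 5618 and 8456 UMIs over all cells of each library. Immunoglobulin genes, constant and variable, took a median of 57.4% of a WT member's UMIs and 54.4% of a *Postn*-DTR member's. In T cells, which do not make immunoglobulin, the medians were 0.0862% and 0.278%, which gives the level of free RNA. The libraries had 65 barcodes in common, of which 5 belonged to WT members and 19 to *Postn*-DTR members, with 1 a member in both. No doublet caller was run. UMIs of 2 or more T cell markers were found in 9.85% of the WT and 2.59% of the *Postn*-DTR members, and of 2 or more neutrophil markers in 1.75% and 6.79%. *Postn* itself had a UMI in 1 of 457 WT members and in 0 of 1546 *Postn*-DTR members, which allows a share of up to 0.194%.

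The label of the members was checked against markers outside the rule. All 9 plasma cell markers were detected in both libraries. *Sdc1*, which encodes the plasma cell surface protein CD138, had a UMI in 96.1% of the WT and 82.6% of the *Postn*-DTR members, and in 6.78% and 2.51% of T cells. The summed level of the 9 markers was 39.2 UMIs per 10000 in WT members and 45.1 in *Postn*-DTR members, against 4.57 and 6.51 in B cells. The summed level of the 9 B cell markers was 10.5 and 11.7 in the members, most of it *Cd79a*, against 84.0 and 73.3 in B cells.

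*Jchain* was lower in the *Postn*-DTR members. Its level, the mean over cells in UMIs per 10000, was 495 in WT (SD over cells 202) and 295 in *Postn*-DTR (SD 151), and the medians were 489 and 277. A *Jchain* value of 300 or more was found in 81.4% of WT and 43.8% of *Postn*-DTR members. The distributions overlapped: the central 90% of cells ran from 172 to 832 in WT and from 84.8 to 564 in *Postn*-DTR. Just inside the minimum, at 50 to 75 UMIs per 10000, stood 3 WT and 57 *Postn*-DTR members, with mean *Ighm* levels of 296 and 554. Just outside it, at 25 to 50, stood 2 and 44 cells that passed the other parts of the rule, with *Ighm* at 378 and 433, so the minimum passed through a populated range in *Postn*-DTR.

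The other genes of the rule went the opposite way or stayed near a ratio of 1. *Xbp1* was at 13.2 in WT and 21.6 in *Postn*-DTR (log2 ratio 0.71). *Mzb1*, an ER chaperone that assists IgM assembly, was at 26.2 and 43.3 (0.73). Within the V segment groups described below the libraries differed less in *Mzb1*, at 18.0 and 20.9 with *Ighv11-2* and 49.0 and 67.9 with *Ighv1-11*. *Ighm* was at 571 and 540, and *Igkc*, which the rule did not use, at 395 and 380. *Prdm1*, the master regulator of the plasma cell state, was at 1.05 and 1.10, and *Irf4* at 2.38 and 2.80. The chains of the antibody and both transcription factors thus differed little in mean level, while *Jchain* stood lower and *Xbp1* and *Mzb1* higher. *Sdc1* was at 1.93 and 1.19, and *Tnfrsf17*, the receptor BCMA through which APRIL sustains plasma cells, at 1.67 and 0.725, with a UMI in 89.7% and 64.4% of the cells.

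**Figure D2:**
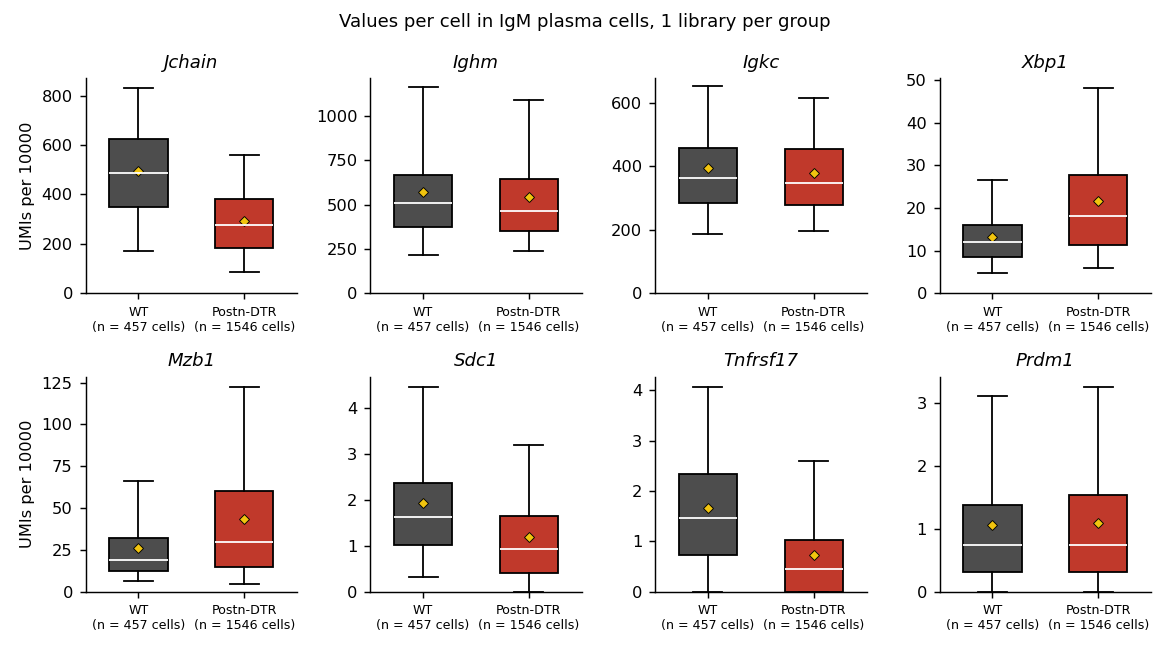
Values per cell in UMIs per 10000 (vertical axes) of 8 genes in the 457 WT (gray) and 1546 *Postn*-DTR (red) IgM plasma cells. Boxes span the quartiles with the median as a white line, whiskers run from the 5th to the 95th percentile of cells, and diamonds are means. *Jchain*, *Sdc1* and *Tnfrsf17* sat lower in *Postn*-DTR and *Xbp1* and *Mzb1* higher, while the boxes of *Ighm*, *Igkc* and *Prdm1* nearly coincided.

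Next, the V segment of each member was taken as the heavy-chain V gene with the most UMIs in the cell, at least 5, which gave a call in 455 of 457 WT and 1540 of 1546 *Postn*-DTR members. A V segment is not a clone, since cells that share it can differ in junction and mutations. The segment called held a median of 2853 UMIs in WT and 3316 in *Postn*-DTR, and the next one 0.0982% and 0.219% of that. *Ighv11-2* was used by 190 WT members (41.8%, 37.2 to 46.4) and by 622 *Postn*-DTR members (40.4%, 37.9 to 42.9). *Ighv1-11* was used by 95 WT members (20.9%, 17.2 to 24.9) and by 660 *Postn*-DTR members (42.9%, 40.4 to 45.4). Together both segments covered 62.6% of the WT and 83.2% of the *Postn*-DTR members.

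The remaining segments were used by fewer cells each. *Ighv12-3* was called in 4.84% and 3.83%, *Ighv7-1* in 1.76% and 1.23% and *Ighv1-52* in 0.879% and 0.779%. *Ighv1-55* went from 33 WT members (7.25%, 5.04 to 10.0) to 27 *Postn*-DTR members (1.75%, 1.16 to 2.54), *Ighv6-6* from 17 (3.74%) to 6 (0.390%) and *Ighv3-6* from 13 (2.86%) to 4 (0.260%). The intervals of these last 3 segments did not overlap between libraries. They are shares of members with a call, which fall when members with other segments increase. A lower share here thus does not by itself mean a lower share of all cells. In all 33 segments were called among 455 WT and 52 among 1540 *Postn*-DTR members, and more cells can hold more segments. The effective number of segments, 1 over the sum of squared shares, was 4.35 in WT and 2.86 in *Postn*-DTR.

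Heavy and light segments came in recurrent pairs. Of the cells with *Ighv11-2*, 189 of 190 in the WT and 617 of 622 in the *Postn*-DTR library had *Igkv14-126* as the light-chain V segment with the most UMIs. *Ighv1-11* was joined with *Igkv8-16* in 80 of 95 cells (84.2%) and 590 of 660 (89.4%), and with *Igkv14-126* in 5 and 32 cells. The light-chain call needed at least 5 UMIs and no set margin over the next segment, and V genes without an *Igkv* or *Iglv* name were left out of it. Whether the rarer pairs came from free RNA was not tested. *Ighv12-3* was joined with *Igkv4-91* in 21 of 22 and 48 of 59 cells, and *Ighv1-55* with *Igkv12-89* in 30 of 33 and 24 of 27. The pairs of *Ighv11-2* with *Igkv14-126* and of *Ighv12-3* with *Igkv4-91* are known from B1a B cells that bind phosphatidylcholine. Some pairs were seen mainly in 1 library: *Ighv6-6* with *Igkv10-94* in 13 WT and 0 *Postn*-DTR cells, and *Ighv1-11* with *Igkv12-98* in 0 WT and 29 *Postn*-DTR cells. A count of 0 of 1540 cells allows a share of up to 0.195%, and 0 of 455 up to 0.659%.

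**Figure D3:**
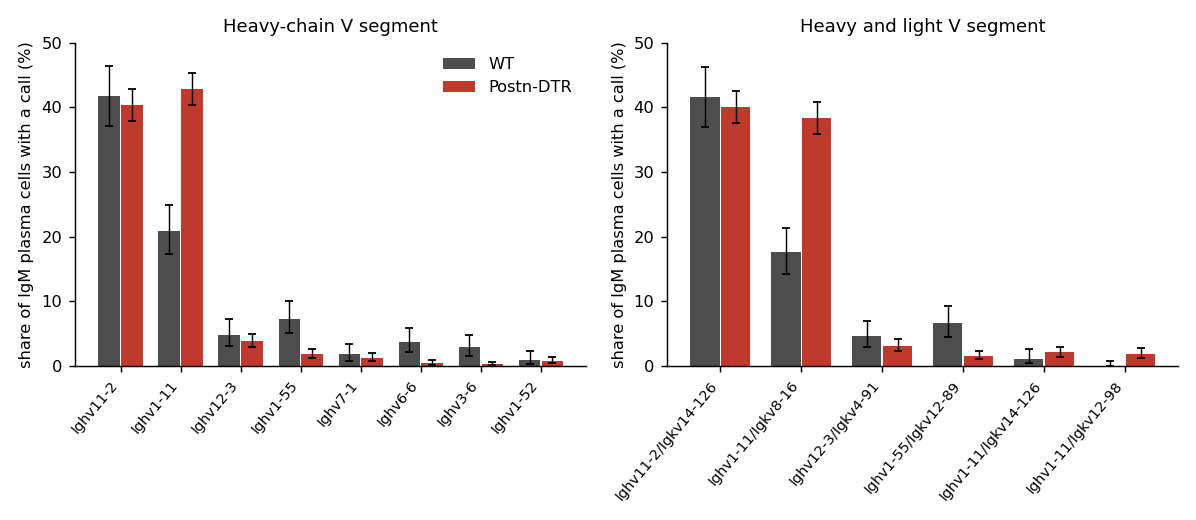
Heavy-chain V segments (left) and the 6 most frequent pairs of heavy-chain and light-chain V segments (right) in IgM plasma cells of WT (gray) and *Postn*-DTR (red). Bars give the share of members with a call (vertical axes, %) and whiskers the exact 95% interval for counting error. *Ighv11-2* was at 41.8% and 40.4%, while *Ighv1-11* was at 20.9% and 42.9%.

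Set against all cells of the library, IgM plasma cells with *Ighv11-2* went from 2.19% to 10.8%, a ratio of 4.96 (4.23 to 5.81). Those with *Ighv1-11* went from 1.09% to 11.5%, a ratio of 10.5 (8.50 to 13.0), and those with any other segment from 1.96% to 4.50%, a ratio of 2.30 (1.90 to 2.78). The 3 intervals did not overlap, and all 3 groups had a larger share in *Postn*-DTR. Other plasma cells used the segments differently. *Ighv1-11* was the segment of 77.0% of the class-switched plasma cells in WT (57 of 74) and 72.9% in *Postn*-DTR (137 of 188), and *Ighv11-2* of 0 and 1 cells. Among cycling plasmablasts *Ighv1-11* went from 13 of 62 (21.0%, 11.7 to 33.2) to 199 of 313 (63.6%, 58.0 to 68.9), while *Ighv11-2* was at 21.0% and 16.3%.

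Members with either segment differed within a library too. In this comparison 4247 genes with at least 100 UMIs in each library were used. In WT 145 genes (3.41% of those compared) were at least 2-fold higher with *Ighv1-11* than with *Ighv11-2* and 34 (0.801%) lower, and in *Postn*-DTR 286 (6.73%) and 66 (1.55%). Both libraries gave the higher call for 82 genes, 56.6% of the WT list and 28.7% of the *Postn*-DTR list, and the lower call for 19. The genes in the next sentences were chosen after their values were seen. *Creld2*, an ER stress chaperone, was at 3.36 with *Ighv11-2* and 16.0 with *Ighv1-11* in WT, and at 4.14 and 17.7 in *Postn*-DTR. *Edem2*, which trims mannose on misfolded glycoproteins, was at 1.64 and 6.57 in WT and at 1.87 and 9.53 in *Postn*-DTR. *Tigit*, an inhibitory receptor, was at 0.0465 and 0.654 in WT and at 0.178 and 1.07 in *Postn*-DTR. In the opposite direction, the adhesion molecule gene *Epcam* was at 0.830 with *Ighv11-2* and 0.176 with *Ighv1-11* in WT, and at 0.869 and 0.192 in *Postn*-DTR. *Atp1b1*, a subunit of the sodium pump, was at 0.409 and 0.0671 in WT and at 0.850 and 0.0871 in *Postn*-DTR. *Mzb1* was also higher with *Ighv1-11* (49.0 against 18.0 in WT, 67.9 against 20.9 in *Postn*-DTR). So were the constant genes *Ighm* (753 against 441, and 685 against 397) and *Igkc* (562 against 354, and 468 against 318). Yet immunoglobulin genes, constant and variable together, took a smaller part of the UMIs of *Ighv1-11* cells. The medians were 51.7% against 64.5% in WT and 48.1% against 61.2% in *Postn*-DTR. The value of every other gene per 10000 UMIs depends on that share. *Jchain* differed less between segments (546 against 446 in WT, 323 against 261 in *Postn*-DTR) than between libraries.

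Expression was then compared between the libraries gene by gene over all members. A level is the mean over cells in UMIs per 10000, and log2 ratios are *Postn*-DTR over WT with 0.02 UMIs per 10000 added to both levels, which understates the ratio of low genes. Of 8885 genes that reached 100 UMIs in the members of both libraries together, V, D and J segments left out by name, 162 (1.82%) were at least 2-fold higher in *Postn*-DTR and 229 (2.58%) at least 2-fold lower, and the median log2 ratio was 0.024. After thinning each cell to 2000 UMIs that were not immunoglobulin the counts were 364 and 490. The same 8885 genes, chosen at full depth, were used there and had fewer UMIs each. Of the 854 genes called after thinning, 340 were among the 391 called at full depth in the same direction. The part of counting error in the larger counts was not tested. Since *Ighv1-11* cells were a larger part of the *Postn*-DTR members, the ratios were also taken within each segment. Among *Ighv11-2* cells 161 of 6655 genes (2.42%) were 2-fold higher and 141 (2.12%) lower, and among *Ighv1-11* cells 299 of 6648 (4.5%) and 206 (3.1%). These are subsets of the same cells and libraries and are no independent measurement.

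The genes described next had the highest and lowest ratios among those with a UMI in at least 5% of the members of the higher library and no cell holding over 10% of its UMIs. *Sbno2*, a transcriptional coregulator that IL-10 signaling induces in macrophages (chromosome 10, 80056992 to 80105571, minus strand), had the highest log2 ratio of these, 4.50. It was at 0.0779 in WT (113 UMIs, a UMI in 18.8% of the members) and 2.19 in *Postn*-DTR (7415 UMIs, 57.8%). Thinned to 2000 UMIs that were not immunoglobulin, with 4 WT and 31 *Postn*-DTR members left out, 3.53% of WT (2.03 to 5.67) and 30.7% of *Postn*-DTR members (28.4 to 33.1) retained a UMI. T cells gave 5.21% and 8.33% after the same thinning, so the WT share was not above that of T cells. The *Postn*-DTR value was spread over many cells but unevenly, with a median of 0.404 and a 95th percentile of 10.9. The log2 ratio was 3.07 with *Ighv11-2* and 5.30 with *Ighv1-11*, and it was 4.01 in class-switched plasma cells, 3.22 in cycling plasmablasts and 1.27 in B cells of the same libraries.

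*Zcwpw1*, a reader of histone methylation known from meiosis, followed with 0.145 in WT and 1.54 in *Postn*-DTR (log2 ratio 3.24; 16.0% and 65.3% of members with a UMI). It overlaps *Pilra* on the opposite strand. Its ratio was 3.62 with *Ighv11-2* and 2.89 with *Ighv1-11*, and T cells were at 0.062 and 0.079. B cells were at 0.449 and 1.14 (1.31), and the ratio was 1.74 in cycling plasmablasts and 2.62 in class-switched plasma cells. *Slc7a8*, an amino acid transporter, was at 0.023 and 0.211 (2.44), *Gpnmb*, a glycoprotein of lysosomes, at 0.013 and 0.149 (2.36), and *Ada*, the adenosine deaminase, at 0.094 and 0.494 (2.17). *Trio*, a guanine nucleotide exchange factor, had a log2 ratio of 2.16 and *1500011B03Rik* of 2.11. All 5 of these also passed 2-fold within each segment.

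The genes *Ovol3*, *Gm34113*, *Fads2* and *Cox4i2* had 1 to 16 UMIs in all WT members together. With *Ighv11-2*, *Ovol3*, *Fads2* and *Cox4i2* had 0 UMIs in WT and 32, 34 and 12 in *Postn*-DTR. Their *Postn*-DTR levels there were below the 0.02 added to both levels, so their ratios could not reach 2-fold. For these 3 genes the ratios cannot tell whether the segments differed. *Ovol3*, a zinc finger gene, was counted with 3 UMIs among WT and 612 among *Postn*-DTR members, a log2 ratio of summed UMIs between 4.66 and 8.49. Its log2 ratio of levels was 3.65 with *Ighv1-11* and 0.90 with *Ighv11-2*. For the long noncoding RNA *Gm34113* (3 and 455 UMIs, interval 4.23 to 8.07) these were 3.90 and -0.032. *Fads2*, a fatty acid desaturase, had 16 and 597 UMIs, with log2 ratios of 3.09 and 0.85. *Cox4i2*, a subunit isoform of cytochrome oxidase, had 1 and 385 UMIs (4.64 to 12.4), with 3.70 and 0.35. In *Postn*-DTR each of these 4 genes had a UMI in 13.9% to 19.0% of the members. *Gm43218* had the higher ratio with *Ighv11-2*, 6.23, against 0.23 with *Ighv1-11*. It is annotated as an immunoglobulin kappa-region V gene that its name did not mark as one, and 10 cells held 66.4% of its *Postn*-DTR UMIs.

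On the low side, *Ltb*, which encodes the lymphotoxin beta that shapes lymphoid tissue, had the lowest log2 ratio of these, -2.92. It was at 0.558 in WT (a UMI in 31.7% of members) and 0.056 in *Postn*-DTR (6.53%). T cells were at 8.11 and 4.64 UMIs per 10000 of *Ltb* and were 34.7% and 8.34% of cells, so *Ltb* from other cells moved in the same direction, and its part in the difference was not tested. *Gpr183*, the oxysterol receptor that guides B lineage cells in lymphoid tissue, was at 0.374 and 0.070 in the members and at 2.54 and 1.86 in T cells. *Ifi203* was at 0.289 and 0.034, with T cells at 1.81 and 1.25. *Bhlhe40*, a transcriptional repressor, was at 0.366 and 0.062. T cells were at 2.27 and 2.83, lower per cell in WT, but were 34.7% of WT and 8.34% of *Postn*-DTR cells. The part of T cell RNA in these differences was not tested either. *Chst1*, a sulfotransferase, and *Prg2*, the eosinophil major basic protein that plasma cells can also express, were near 0 in T cells (*Chst1* 0.004 and 0.000, *Prg2* 0.001 and 0.010). *Chst1* was at 0.909 and 0.166 in the members (log2 ratio -2.32), with a UMI in 61.3% and 16.2%. *Prg2* was at 3.06 and 0.705 (-2.09), with a UMI in 81.8% and 44.0%. After thinning, 53.6% and 18.2% of the members retained a *Prg2* UMI.

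The other low genes were *Cyb561a3* (-2.58), *Reln* (-2.30), *Dclk2* (-2.22), *Rapgef1* (-2.22), *Ptpn6* (-2.16) and *Wnt10a* (-2.02). *Ptpn6* encodes SHP-1, a phosphatase that restrains B cell receptor signaling, and was at 0.992 in WT and 0.206 in *Postn*-DTR. *Reln*, which encodes the secreted protein reelin, was at 0.239 and 0.033 and was listed at 0 in T cells of both libraries. All 12 of the lowest genes were also at least 2-fold lower within each segment, where *Wnt10a* with *Ighv1-11* was nearest to 2-fold (-1.17). *Cyb561a3* overlaps *Tmem138* and *Tkfc* on the opposite strand, and *Gpr183* overlaps *Ubac2*. Whether the authors' counting used strand is not given in the sources used here.

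**Figure D4:**
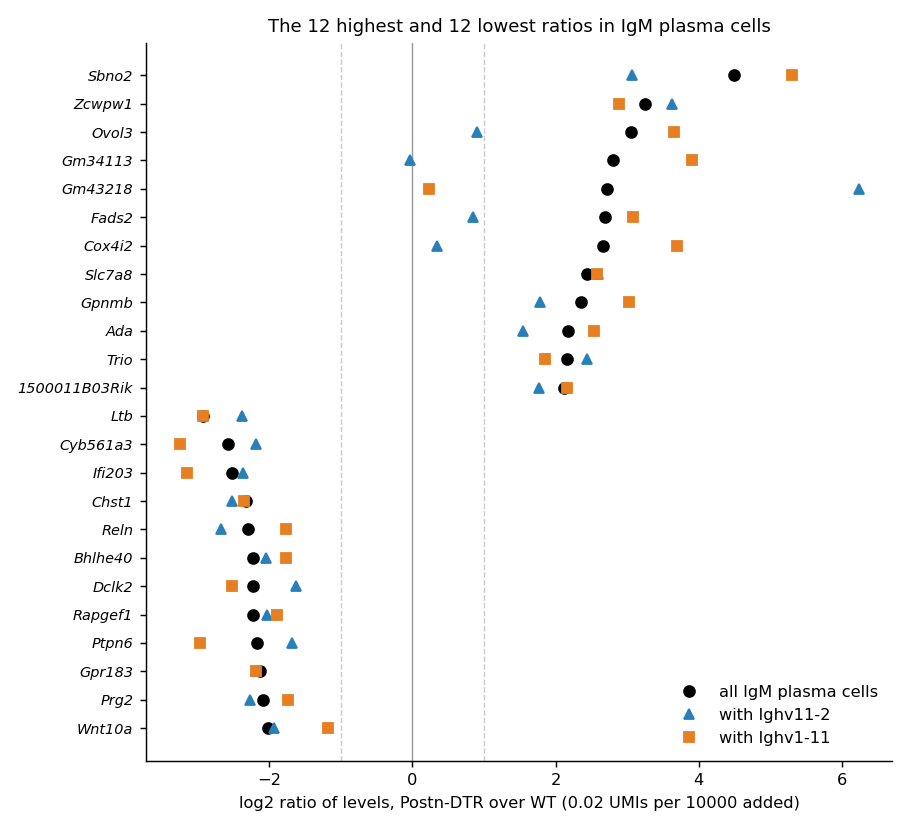
Log2 ratio of levels, *Postn*-DTR over WT (horizontal axis, 0.02 UMIs per 10000 added to both levels), for the 12 genes with the highest and the 12 with the lowest ratio. Circles are all IgM plasma cells, triangles those with *Ighv11-2* and squares those with *Ighv1-11*, and dashed lines mark 2-fold. *Sbno2* stood at 4.50, and *Ovol3*, *Gm34113*, *Fads2* and *Cox4i2* passed 2-fold with *Ighv1-11* but not with *Ighv11-2*. With *Ighv11-2* the levels of *Ovol3*, *Fads2* and *Cox4i2* were below the 0.02 added, which kept their ratios under 2-fold.

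Gene lists are described by their counts and medians. Members other than those with the highest level or the highest and lowest ratio of a list were named after their values were seen. No gene of the lists for translocation into the ER, ER chaperones, ER to Golgi transport and ER-associated degradation passed 2-fold, against 1.82% of all genes tested that were higher and 2.58% that were lower. Their medians were all above the median of all genes (0.024). Of 22 genes for translocation into the ER 20 had a log2 ratio above 0 (median 0.38), led by *Ssr2*, a subunit of the translocon-associated complex, at 1.79 in WT and 3.36 in *Postn*-DTR (0.90). *Ssr4* of the same complex was at 13.2 and 24.5. Of 24 ER chaperones and folding enzymes 19 were above 0 (median 0.35), from *Canx* at 1.26 and 0.94 (-0.41) to *Fkbp11* at 1.75 and 3.47 (0.98). Of 25 genes for ER to Golgi transport 23 were above 0 (median 0.44), with the cargo receptor *Tmed10* at 4.02 and 6.24. Of 14 genes for ER-associated degradation 13 were above 0 (median 0.36), and *Edem1* was at 5.07 and 9.03.

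Of 14 regulators of the unfolded protein response 12 were above 0 (median 0.32), from *Ppp1r15a* (-0.35) to *Xbp1* (0.71). Of 15 N-glycosylation genes 10 were above 0 (median 0.29), and *Stt3b*, a catalytic subunit of the oligosaccharyltransferase, was the 1 gene of these lists past 2-fold, at 1.73 in WT and 0.615 in *Postn*-DTR (-1.46). *Stt3b* had a UMI in 92.1% and 67.2% of the members. Within *Ighv11-2* cells the medians were smaller, 0.20 for translocation, 0.16 for chaperones, 0.15 for ER to Golgi transport, 0.17 for degradation, 0.11 for the unfolded protein response and -0.08 for N-glycosylation. Within *Ighv1-11* cells they were 0.44, 0.16, 0.54, 0.27, 0.67 and 0.39. With immunoglobulin genes left out of each cell's total, the 6 medians lay between 0.17 and 0.33. In B cells of the same libraries the medians, in the same order, were 0.29, 0.48, 0.34, 0.39, 0.44 and 0.07. In T cells they were -0.02, -0.04, 0.14, 0.02, 0.22 and -0.14.

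Of 82 cytosolic ribosomal protein genes 69 were above 0, with a median of 0.37 and none past 2-fold. *Rps24* was at 35.1 and 45.3, *Rpl10a* had the highest ratio (0.82) and *Rps21* the lowest (-0.54). In B cells and T cells of the same libraries the medians of this list were 0.00 and -0.01. In class-switched plasma cells and cycling plasmablasts they were 0.26 and 0.04. Of 15 genes of amino acid transport and synthesis 13 were above 0 (median 0.41), and 3 passed 2-fold: the glutamine transporter *Slc1a5* (0.722 and 1.76), the leucine transporter *Slc7a5* (0.727 and 1.71) and *Shmt2*, the mitochondrial serine hydroxymethyltransferase (0.502 and 1.09). The 13 mitochondrially encoded oxidative phosphorylation genes had a median of -0.28 and the 72 nuclear ones of 0.00. Oxidative phosphorylation thus did not share the direction of the ribosomal genes. In B cells these medians were -0.28 and -0.21, and in T cells -0.28 and -0.12. *mt-Nd3* (0.448 and 0.214) and *Cox6a2* (0.217 and 0.071) were the members past 2-fold.

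**Figure D5:**
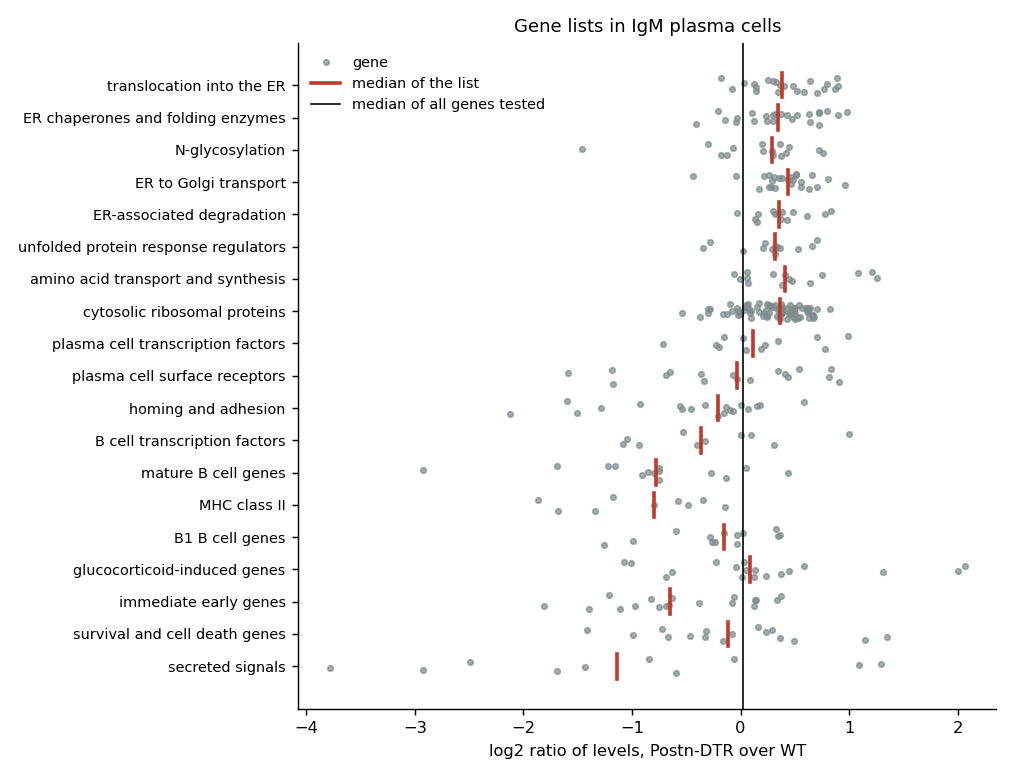
Log2 ratio of levels, *Postn*-DTR over WT (horizontal axis), of the genes in 19 lists (rows) in IgM plasma cells. Gray points are genes with at least 100 UMIs, red bars the median of each list and the black line the median of all genes tested. The medians of the 6 ER lists, amino acid genes and ribosomal proteins lay between 0.29 and 0.44, and those of mature B cell genes and MHC class II at -0.77 and -0.80.

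Of 14 mature B cell genes 2 were above 0 and 4 were at least 2-fold lower (median -0.77), against 2.58% of all genes tested that were lower. The median was -0.51 with *Ighv11-2* and -1.49 with *Ighv1-11*. It was -0.27 in B cells, and -0.51 in T cells over 7 genes. B cells were 32.8% of WT and 18.0% of *Postn*-DTR cells, and the part of free B cell RNA in these ratios was not tested. *Cd52*, a small lymphocyte surface glycoprotein, was at 8.75 in WT (SD over cells 9.76) and 2.70 in *Postn*-DTR (SD 4.27). A *Cd52* UMI was found in 97.8% and 79.4% of members, and T cells were at 18.9 and 13.9. *Ighd* (0.072 and 0.019), *Blk*, a kinase of B cell receptor signaling (0.201 and 0.079), and *Ltb* were the others past 2-fold. *Ly6d* was at 10.2 and 6.08. *Cd79a*, the signaling chain of the B cell receptor, was the exception with 6.42 and 8.71. *Ms4a1*, which encodes CD20, was at 0.748 and 0.390 and was listed at 0 in the T cells, whose definition excludes it.

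Of the 9 MHC class II genes tested none was above 0 and 4 were 2-fold lower (median -0.80), all 4 of them nonclassical: *H2-DMa*, *H2-DMb1*, *H2-DMb2* and *H2-Oa*, which serve peptide loading. In T cells, which should lack these genes, the summed level of the 10 listed was 11.6 in WT and 1.34 in *Postn*-DTR and the median log2 ratio of the 9 was -2.71, and the part of free RNA in the ratios of the members was not tested. *Cd74*, the invariant chain, was at 53.2 and 35.7. *H2-Aa* was at 2.71 and 1.55, yet a UMI of it was found in fewer WT than *Postn*-DTR members (43.3% and 62.6%; 24.1% and 29.5% after thinning). In WT its upper quartile over cells was 0.747 and its 95th percentile 13.8, against 1.30 and 5.92 in *Postn*-DTR. *H2-Ab1*, at 3.04 and 2.76, was found in 50.1% and 59.4% after thinning. The levels and the shares of cells thus gave opposite orders for both of these classical class II genes, and no order is read from them. Of 10 B cell transcription factors tested 2 were 2-fold lower, *Pax5* and *Spib*, and 1 was 2-fold higher, *Bcl6* (0.011 and 0.043), all at low levels.

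Transcription factors of plasma cells had a median of 0.12 over 12 genes with none past 2-fold, from *Zbtb20* at 1.07 and 0.65 (-0.71) to *Pou2f2* at 0.39 and 0.79 (0.99). Plasma cell surface receptors had a median of -0.03 over 17 genes, with 3 past 2-fold, all lower. Besides *Tnfrsf17* (-1.19) these were *Cd28*, a costimulatory receptor that supports plasma cell survival (0.744 and 0.234, log2 ratio -1.59), and *Cd93* (0.123 and 0.043, -1.18). A *Cd28* UMI was found in 72.9% and 29.4% of members, and in 27.8% and 9.90% after thinning. T cells were at 3.11 and 2.29 for *Cd28*, at 0.007 in both libraries for *Tnfrsf17* and at 0.098 and 0.103 for *Cd93*. *Cd93* was not lower with *Ighv1-11* (0.08). *Tigit* had the highest ratio of the list (0.30 and 0.58).

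Of 19 homing and adhesion genes 5 were above 0 and 4 were 2-fold lower, among them *Gpr183*, the lymph node homing receptor gene *Ccr7* (0.110 and 0.023) and *Ccr2* (0.077 and 0.020). In T cells the levels of these 3 genes lay between 1.33 and 2.54. *Cxcr4*, the receptor for the chemokine CXCL12, had the highest ratio, 0.45 and 0.68 (0.59), and a UMI in 57.8% and 63.9% of members. *Selplg* was at 1.29 and 0.88. B1 B cell genes had a median of -0.15 over 13 genes, with *Ctla4* at 2.12 and 2.07, *Spn* at 0.27 and 0.35 and *Cd5* at 0.054 and 0.011 (-1.26).

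Genes that glucocorticoids induce showed no common direction, with 12 of 18 above 0 and a median of 0.08. Of them 3 passed 2-fold upward, *Fkbp5* (0.012 and 0.115, log2 ratio 2.07), *Ddit4* (0.065 and 0.320) and the metallothionein *Mt1* (0.754 and 1.91, 1.32), and *Btg1* and *Txnip* downward. *Fkbp5* had a UMI in 3.94% and 18.8% of members. Its log2 ratio was 2.03 with either segment, and in T cells it was at 0.29 and 0.90. Immediate early genes had a median of -0.65, with 4 of 18 past 2-fold, all lower: *Fos* (4.60 and 2.12), *Fosb* (1.29 and 0.476), *Egr1* (1.72 and 0.733) and *Klf6* (1.66 and 0.460). In class-switched plasma cells the median of this list was -0.96 over 13 genes, and in cycling plasmablasts -0.55 over 17. In B cells and T cells the medians were 0.34 and 0.32, on the other side of 0.

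Secreted signals had a median of -1.14 over 10 genes tested, 5 of them 2-fold lower and 2 higher. *Il10*, which encodes an anti-inflammatory cytokine, was at 0.339 in WT and 0.860 in *Postn*-DTR (log2 ratio 1.29), with a UMI in 28.9% and 38.6% of members and 1.53% and 1.88% of T cells. *Vegfa* was at 0.189 and 0.427. *Ccl5* (-3.78), *Ltb*, *Areg* (-2.49), *Ebi3* (-1.69) and *Ccl4* (-1.43) were lower. *Areg* had a UMI in 2.41% and 0.712% of members, and its log2 ratio was 1.11 with *Ighv11-2*. Of the WT *Ccl5* UMIs in members 84.9% were in 10 cells, and T cells were at 35.9 and 39.1. Among survival genes *Bcl2l11* (0.299 and 0.792) and *Bcl2l1* (0.036 and 0.104), which encode the opposed BIM and BCL-XL, were 2-fold higher and *Pmaip1* (0.127 and 0.035) 2-fold lower, with a list median of -0.12 over 16 genes.

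The remaining lists stayed near the median of all genes. Interferon-stimulated genes had a median of -0.08 over 15 genes, although *Ly6e* was at 16.3 and 7.06, *Isg15* was lower (-1.09) and *Zbp1* higher (1.28). Retinoic acid response genes had a median of 0.07 with none of 7 past 2-fold, circadian clock genes of -0.06, heat shock genes of -0.20 with *Hspa1b* lower (-1.56), and cell cycle genes outside the rule of -0.11 with *Tuba1b* lower (-1.16). Among heavy-chain constant genes the ratio of *Ighg1* rested on few cells, since 10 cells held 99.6% of the *Postn*-DTR UMIs of *Ighg1* (0.036 and 0.673). *Ighg2b* (0.005 and 0.199), *Ighg2c* (0.019 and 0.343) and *Igha* (0.155 and 0.467) also passed 2-fold.

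Markers of other cell types were counted in the members as well. The summed level of 6 T cell markers was 0.56 in WT and 0.17 in *Postn*-DTR members, against 36.6 and 30.2 in T cells. That of 5 neutrophil markers was 3.48 and 4.57, and *Retnlg* went from 0.098 to 0.713. For 6 macrophage markers it was 1.17 and 0.95, although 3 of the 4 tested had a log2 ratio above 0 (median 0.59), for 6 stromal markers 0.22 and 0.13, with *Pdgfra* and *Msln* at 0 in WT, and for 4 red cell markers 0.00, with all 4 at 0 in WT, and 0.11. Leaving out the 74 WT and 199 *Postn*-DTR members with UMIs of 2 or more markers of another cell type left every one of the 24 highest and lowest genes on its side of 2-fold. These genes were the extremes of the same cells, of which 383 WT and 1347 *Postn*-DTR members stayed, so this outcome was largely set in advance. B cell markers were not used to leave cells out, and free RNA stays in the cells kept. The part of other cell types in these ratios was not tested.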

How the data were processed

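Single-cell libraries of the omentum were made with droplets (10x Genomics) from WT and *Postn*-DTR mice, 1 library per group. Per the labels a 5′ kit was used, whereas the study's methods describe a 3′ kit. The submitters' processing notes name Cell Ranger 6.0.0 and mm10, and the methods another version. The deposited values are natural log values, ln(1 + UMIs per 10000 of a cell), made by the authors. Each cell's UMIs were recovered from the value of 1 UMI, and 99.95% (WT) and 99.89% (*Postn*-DTR) of values came out whole within 0.1 UMI. The design had allowed for counts, and the recovered UMIs took their place. Of 1078 symbols given as identifiers 1060 were named from GENCODE.

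The files held 8686 and 5736 barcodes, of which 8680 and 5734 had 200 to 7500 genes. Members and gene lists were chosen with earlier results of these data known. Shares have exact Clopper-Pearson 95% intervals, their ratios Katz intervals and summed UMIs exact conditional binomial intervals. A limit for a count of 0 is 3 counts of the total. Named genes were the 12 highest and 12 lowest ratios under the limits given in the text, the extremes and highest level of each list, the genes of the rule and the 8 V segments used most. A gene of the homing list is not reported here. Alternatives changed the denominator, the minimum of *Jchain* or UMIs, the isotype margin, the scaling and the cells used. The code was tested on simulated data. Python 3.11.15, numpy 2.4.6, scipy 1.17.1, pandas 2.3.3 and matplotlib 3.10.9 were used.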

Additional observations from a re-analysis of the deposited data

How the results depend on the processing

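With 1 library per group, no replicate could be left out and no difference between mice could be told apart from a difference between genotypes. No paired analysis was possible because each group had 1 library. The ratio of the shares of IgM plasma cells was 5.12 over all cells, 5.90 without neutrophil-like cells and 3.78 within the B lineage. The share of IgM among plasma cells that were not cycling was 89.0% in WT and 90.1% in *Postn*-DTR when each isotype had to be at least 10 times every other one. With a *Jchain* minimum of 100 per 10000 it was 87.8% in WT and 92.7% in *Postn*-DTR. *Igkc* was highest in 99.2% of WT and 99.3% of *Postn*-DTR members when the highest gene had to be 10 times the next.

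The number of genes past 2-fold, 162 higher and 229 lower, was 364 and 490 after thinning to 2000 UMIs that were not immunoglobulin, with 340 genes called in both. It was 161 and 141 within *Ighv11-2*, where 53.3% of the called genes were higher against 41.4% over all members, and 299 and 206 within *Ighv1-11*, where 59.2% were higher. These segment comparisons were chosen after seeing the data, and the median of all genes was 0.14 within *Ighv1-11*. Of the 391 genes called, 186 were called in the same direction within *Ighv11-2* and 202 within *Ighv1-11*. Some values past 2-fold given here did not hold in every setting. *Gm34113* had a log2 ratio of -0.032 within *Ighv11-2*, and the median of the T cell markers was 0.061 without the members that held 2 or more markers of another cell type. *Areg* within *Ighv11-2* and *Cd93* within *Ighv1-11* changed sign, as given above. The median of the secreted signals was -1.14 over all members but -0.65 within *Ighv11-2* and -0.58 within *Ighv1-11*. Medians of lists under 2-fold also changed sign in some settings. Within *Ighv11-2* they were -0.078 for N-glycosylation, 0.089 for survival genes and 0.094 for heat shock genes, within *Ighv1-11* 0.063 for heat shock genes, 0.17 for clock genes, -0.024 for plasma cell markers and -1.38 for neutrophil markers, and those of lists close to 0 crossed it too. Over the settings of the 24 named genes, 187 kept the side of 2-fold, 4 did not and 1 changed sign. The causes were not tested.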
